A study of Mus musculus with 6 samples.

Results

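Müller glia without reactive-gene RNA are the Müller nuclei of the mouse retina in which no transcript of 4 genes of glial reactivity was read. They numbered 487 of the 655 Müller nuclei and of the 27225 nuclei kept in all. A kept nucleus had at least 500 unique molecular identifiers (UMIs, each counted as 1 RNA molecule) and at most 10% mitochondrial UMIs. A Müller nucleus showed at least 5 of the 9 markers Slc1a3, Glul, Rlbp1, Aqp4, Abca8a, Kcnj10, Sox9, Crym and Lhx2, with at least 10 UMIs of them together, and at most 2 UMIs of the ON bipolar genes Grm6 and Trpm1. Among these, nuclei with 0 UMIs of Gfap, Lcn2, Serpina3n and C4b are called non-reactive here, and the other 168 are called reactive. Both names stand for these RNA counts alone, and the rule used measured values, so the rule's own genes are given as a description.

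The study assayed nuclei of C57BL/6J retinas by multiome sequencing, in which RNA and open chromatin (ATAC) are read from the same single nucleus. The groups were eyes given an AAV2/2 vector for WIF1 and taken at 2 weeks, the same at 4 weeks, and a naïve control, with 1 library and 2 eyes per group. The labels do not say whether the 2 eyes were pooled, nor which of the Wif1 vectors named in the design (CMV-Wif1-HA-IRES-GFP or CMV-Wif1-HA) was used, and they attach the unexpanded abbreviation AVI to the times. The whole retina was dissociated with papain and lysed to nuclei, and since the control eyes were naïve, injection, vector and WIF1 cannot be told apart.

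Müller glia span the whole thickness of the retina. They clear glutamate from synapses and convert it to glutamine, buffer potassium and water, carry part of the visual retinoid cycle, and supply lipids and antioxidants to neurons. On injury or inflammation they take on a reactive state marked by Gfap, complement and acute-phase genes. WIF1, Wnt inhibitory factor, is released by cells and captures Wnt proteins before they reach their receptors.

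Non-reactive nuclei were 181 of 278 Müller nuclei at 2 weeks (65.1%, exact binomial interval 59.2 to 70.7), 208 of 265 at 4 weeks (78.5%, 73.0 to 83.3) and 98 of 112 in the control (87.5%, 79.9 to 93.0). Of all kept nuclei they were 1.83%, 2.16% and 1.28%. A nucleus with fewer UMIs is more easily read at 0, and the libraries differed in depth. The median non-reactive nucleus held 2603 UMIs at 2 weeks, 3574.5 at 4 weeks and 3740 in the control, over summed totals of 512757, 795670 and 386327 UMIs. With every Müller nucleus thinned to 1500 UMIs the non-reactive share was 77.0% of 269 (71.5 to 81.8), 84.9% of 265 (80.0 to 89.0) and 95.5% of 111 (89.8 to 98.5), which leaves out 9, 0 and 1 shallower nuclei. The order of the libraries was the same at equal depth. Rods, which should lack the 4 genes, showed a C4b UMI in 0.168%, 0.0699% and 0.0525% of nuclei and an Lcn2 UMI in 0.630%, 0.350% and 0.490%, at median depths of 743, 1094 and 1345 UMIs.

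All intervals are 95% intervals that cover counting error only. With 1 library per group there are no replicates and no test, and each comparison describes these libraries. Expression is given as CPM, a gene's UMIs summed over the nuclei of a group in a library and scaled by the total UMIs of those nuclei. A gene is counted as higher or lower when this ratio is 2-fold or more and the higher library holds at least 30 UMIs. Gene lists are counted over their measured members, those with at least 10 UMIs over both sums, and the list's median log2 ratio is given beside that of all genes measured in this way. The 3 libraries held 8556 to 13528 barcodes and 14568384 to 21805441 RNA UMIs. They shared 207 barcodes between 2 and 4 weeks, 173 between 2 weeks and the control, and 142 between 4 weeks and the control, and 0 shared barcodes joined a pair of non-reactive Müller nuclei.

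Free RNA from rods, by far the most common cells, differed between the libraries. UMIs of 46 rod genes made up 0.594% of the RNA of non-reactive nuclei at 2 weeks, 0.942% at 4 weeks and 1.36% in the control, and per nucleus the median was 0.250%, 0.272% and 0.331%. Over 1% was found in 30, 50 and 32 nuclei, and over 5% in 0, 0 and 7. The highest nucleus had 2.84%, 4.94% and 8.95%, against medians of 7.64%, 6.52% and 6.76% in the rods themselves. The mitochondrial share moved the same way, with medians of 0.324%, 0.408% and 1.27%. Both were lowest at 2 weeks and highest in the control, and their part in the differences below was not tested. Of the 46 rod genes, 0 were 2-fold higher and 28 lower at 2 weeks than in the control, with a median log2 ratio of -1.23, and rod genes were left out of the genes named below.

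**Figure D1:**
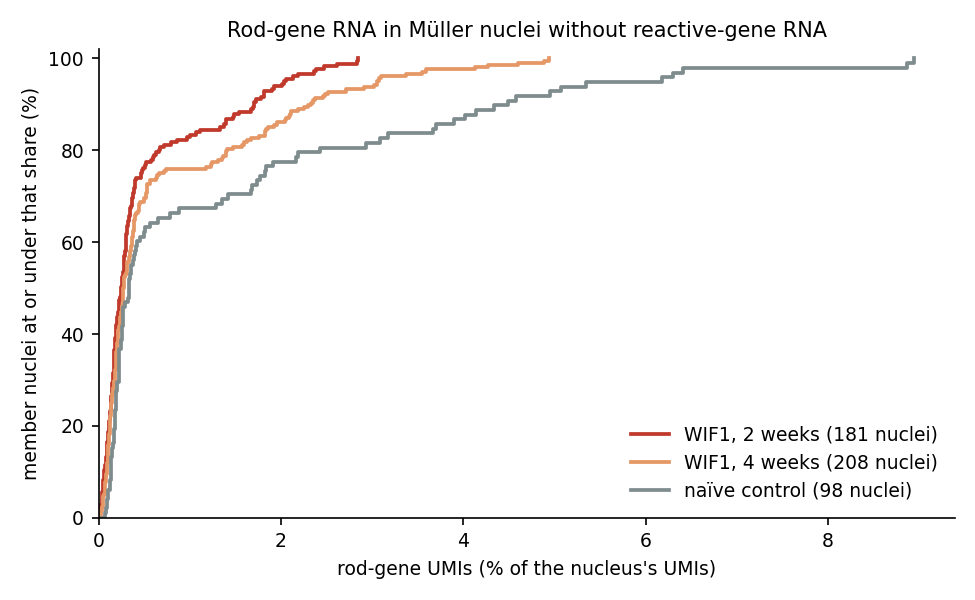
Cumulative share of non-reactive Müller nuclei (vertical axis, percent) with at most a given percentage of rod-gene UMIs (horizontal axis), 1 line per library. The 2-week line reaches the top first, at 2.84%, and the control line has the longest tail, to 8.95%.

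The nuclei carried the RNA of Müller glia beyond the rule's markers. Against all other kept nuclei the highest ratios belonged to Chrdl1, a secreted BMP antagonist, with 225 CPM against 1.13 CPM, and to Frzb, Qrfpr, Aqp4, Bmp3 and Abca8a, of which Aqp4 and Abca8a are in the rule. The 9 rule markers summed to 11362 CPM at 2 weeks, 13704 at 4 weeks and 12961 in the control, and 0 of 9 differed 2-fold between any pair of libraries. Astrocytes share many of these genes, and their defining marker Pax2 was at 0 UMIs in all 3 libraries, with S100b at 1, 6 and 6 UMIs. The astrocyte list summed to 491, 517 and 624 CPM. Microglia and macrophage genes summed to 345, 112 and 72.5 CPM, and 66.7% of the 177 UMIs of the 2-week library sat in 1 nucleus. That nucleus had 28 UMIs of C1qa and 33 of Lyz2, and also 160 of Cd74, which this list does not count. Plasma cell and lymphocyte genes summed to 160, 5.03 and 7.77 CPM, and 1 nucleus at 2 weeks with 20 UMIs of Igkc held 33 of their 82 UMIs. A doublet score marked 27, 41 and 9 of the non-reactive nuclei, which were kept.

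At the edges of the rule, non-reactive nuclei with exactly 5 markers numbered 36, 21 and 13 and had 0.507%, 1.86% and 3.19% rod-gene UMIs, while the nuclei outside it with 4 markers numbered 17, 6 and 7 and had 1.56%, 2.21% and 3.55%. Nuclei with exactly 1 UMI of a reactive gene, just outside, numbered 43, 22 and 5 and had 1096, 542 and 183 CPM of B2m. Non-reactive nuclei with 10 to 14 marker UMIs numbered 8, 6 and 5, and those left out with 5 to 9 numbered 5, 2 and 0. With 1 or 2 UMIs of Grm6 and Trpm1 11, 25 and 6 were inside, and with more 4, 14 and 16 were left out.

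Wif1 itself was hardly read in these nuclei. They held 1 UMI at 2 weeks, 5 UMIs in 3 nuclei at 4 weeks and 0 in the control. That is 1.95 CPM (0.0494 to 10.9), 6.28 CPM (2.04 to 14.7) and 0 CPM (0 to 9.55). All kept nuclei of the 3 libraries held 16, 40 and 2 Wif1 UMIs, or 1.18, 2.07 and 0.101 CPM. Wif1 RNA was thus higher over the whole retina in both libraries labelled WIF1, and the counts do not separate RNA of the vector from that of the mouse's own gene. Reactive Müller nuclei held 1, 7 and 0 Wif1 UMIs, and the 7 at 4 weeks, in 4 nuclei, came to 24.2 CPM (9.72 to 49.8), above the interval of all kept nuclei there (1.48 to 2.83).

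Between 2 weeks and the control, 197 of 4022 genes were higher (4.90%) and 185 were lower (4.60%). Among the 10 highest ratios were 5 genes of class I antigen presentation and the secreted inhibitor Serping1, and among the 10 lowest were Cdhr1, the Notch target Hes5, Camk1d, Grm8, Cmss1 and the sterol gene Msmo1. At 4 weeks against the control, 127 of 5605 genes were higher (2.27%) and 25 lower (0.446%), and the class I genes stood near the control level. Both comparisons share the control library. The splits were less firm than single genes. At 2 weeks the split was 137 higher and 205 lower without called doublets, 143 and 211 with the larger sum thinned to the smaller, 122 and 72 with nuclei thinned to 1500 UMIs, and 157 and 86 in nuclei with at most 1% rod-gene UMIs. At 4 weeks it was 92 higher and 73 lower without called doublets, 134 and 50 with each nucleus weighted equally, and 43 and 48 with the larger sum thinned to the smaller, so the excess of higher genes turned in the last of these alone.

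Class I molecules show peptides from inside the cell to CD8 T cells, and B2m is the light chain they all share. B2m had 1059 CPM at 2 weeks, 239 at 4 weeks and 223 in the control, and at least 1 UMI in 158, 107 and 48 nuclei. The 2-week level was 4.76 times that of the control (3.78 to 6.04), and 4 weeks and control differed by less than their counting intervals. The heavy chain H2-K1 had 823, 151 and 142 CPM, with a 2-week to control ratio of 5.78 (4.36 to 7.80). The heavy chain H2-D1 had 314, 47.8 and 62.1 CPM, with a ratio of 5.05 (3.28 to 8.12). For all 3 genes the 2-week library alone stood apart.

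The proximal promoters of class I genes hold the elements through which interferon and NF-kappaB act on them, so those of B2m, 2 classical heavy chains, the class Ib gene H2-T23 and H2-Q7 are shown here. Each runs from 250 bases before the gene's start to 50 after it, 5′ to 3′ on the gene's strand, from RefSeq on GRCm38.p6. Capitals mark a match to GAAA, any 2 bases and GAAA again, a pair of interferon response half-sites, or to GGGNNTTCC, an NF-kappaB site, searched on both strands.

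B2m (chr2:122147437-122147736, plus strand): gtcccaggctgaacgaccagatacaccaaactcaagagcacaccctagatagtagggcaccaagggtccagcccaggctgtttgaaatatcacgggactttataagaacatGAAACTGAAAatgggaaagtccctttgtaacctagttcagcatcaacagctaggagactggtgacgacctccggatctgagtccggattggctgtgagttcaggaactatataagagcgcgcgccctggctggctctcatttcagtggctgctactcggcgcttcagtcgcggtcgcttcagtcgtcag
H2-K1 (chr17:34000298-34000597, minus strand): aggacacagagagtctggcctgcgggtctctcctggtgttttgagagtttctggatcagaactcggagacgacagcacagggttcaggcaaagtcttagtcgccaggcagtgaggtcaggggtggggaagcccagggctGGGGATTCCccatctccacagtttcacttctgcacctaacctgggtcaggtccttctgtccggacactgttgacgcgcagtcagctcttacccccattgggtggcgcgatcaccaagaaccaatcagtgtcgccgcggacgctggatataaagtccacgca
H2-D1 (chr17:35262844-35263143, plus strand): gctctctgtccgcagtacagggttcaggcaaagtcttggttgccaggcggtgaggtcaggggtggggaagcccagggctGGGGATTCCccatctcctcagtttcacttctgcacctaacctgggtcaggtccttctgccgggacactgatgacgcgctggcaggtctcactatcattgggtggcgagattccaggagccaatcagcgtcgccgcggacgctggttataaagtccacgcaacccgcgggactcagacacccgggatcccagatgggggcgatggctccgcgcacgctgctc
H2-Q7 (chr17:35438905-35439204, plus strand): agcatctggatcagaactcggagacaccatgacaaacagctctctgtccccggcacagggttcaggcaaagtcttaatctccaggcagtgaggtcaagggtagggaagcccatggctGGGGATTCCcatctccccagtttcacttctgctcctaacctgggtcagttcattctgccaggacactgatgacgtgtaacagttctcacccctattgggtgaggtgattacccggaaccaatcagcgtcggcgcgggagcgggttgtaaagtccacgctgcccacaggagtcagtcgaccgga
H2-T23 (chr17:36032652-36032951, minus strand): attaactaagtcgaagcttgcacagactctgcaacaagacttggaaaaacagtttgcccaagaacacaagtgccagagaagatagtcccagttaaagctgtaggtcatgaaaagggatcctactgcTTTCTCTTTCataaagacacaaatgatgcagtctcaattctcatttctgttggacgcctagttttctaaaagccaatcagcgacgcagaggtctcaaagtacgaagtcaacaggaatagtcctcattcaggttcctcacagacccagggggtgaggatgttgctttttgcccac

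Of the 27025 genes with such a sequence, 3.99% held the pair of half-sites and 6.58% held GGGNNTTCC. In the antigen presentation list 5 of 21 held the first (23.8%) and 6 of 21 the second (28.6%), and in the interferon list 22 of 46 (47.8%) and 2 of 46 did. In B2m the match is GAAACTGAAA at 139 bases before the start, and in H2-K1 GGGGATTCC at 111, or at 125 from another listed start. H2-D1 and H2-Q7 have an NF-kappaB site at 171 and 133, and H2-T23 has TTTCTCTTTC on the other strand at 124. Spellings that depart from the pair of half-sites, such as TTTCACTTCT in H2-K1, H2-D1 and H2-Q7, were not searched for and are unmarked. The marked sites are matches of letters, with no evidence of binding.

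The nonclassical class I genes of the H2-Q and H2-T regions were read at far lower levels. H2-Q7 had 42 UMIs in 34 nuclei at 2 weeks, 0 at 4 weeks and 1 in the control, which gives 31.6 times the control with an interval of 5.38 to 1279, and 10.5 times with the control set to a floor of 3 UMIs. H2-Q4 had 62.4, 13.8 and 7.77 CPM, with 32 UMIs at 2 weeks against 3 in the control, a ratio of 8.04 (2.51 to 41.0). H2-T23 had 68.3, 20.1 and 23.3 CPM. Class I genes are near-identical paralogs, H2-Q6 and H2-Q7 most of all, so which of them a read came from is uncertain. The family as a whole was higher at 2 weeks.

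The machinery that loads class I molecules differed less. Tap2, a subunit of the transporter that carries peptides into the endoplasmic reticulum, had 87.8, 41.5 and 41.4 CPM, a ratio of 2.12 at 2 weeks. Nlrc5, the transactivator of class I genes, had 78.0, 2.51 and 20.7 CPM, with 4 of the 8 control UMIs in 1 nucleus. Calr, a chaperone of the loading complex and of many other proteins, went the other way, with 154, 361 and 318 CPM and a ratio of 0.484 (0.360 to 0.647). Over the antigen presentation list 15 of 26 measured members were higher and 1, Calr, lower at 2 weeks, beside 8.59% higher and 8.35% lower of the 10320 genes with at least 10 UMIs. The list's median log2 ratio was 1.42, against -0.02 over all those genes. It summed to 3934, 1449 and 1418 CPM. Among the 15 were Cd74, H2-Aa, H2-Ab1 and H2-Eb1 of class II, which professional antigen-presenting cells use, and 83.4% of their 290 UMIs at 2 weeks came from the 1 nucleus with macrophage RNA named above. Without the nuclei that held 3 or more UMIs of the macrophage or the lymphocyte list, the summed list was 2.42 times the control, against 2.77 with them.

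The class I difference was spread over the nuclei. B2m, H2-K1 and H2-D1 together made up a median of 18.4 UMIs per 10000 in a nucleus at 2 weeks (quartiles 12.1 and 30.3), 3.27 at 4 weeks (0 and 7.17) and 2.62 in the control (0 and 5.87). The lower quartile at 2 weeks was above the upper quartiles of the other libraries. With each nucleus thinned to 1500 UMIs, 90.9% of 176 nuclei had a UMI of the 3 genes at 2 weeks (85.7 to 94.7), 104 of 208 nuclei at 4 weeks (43.0% to 57.0%) and 38.1% of 97 in the control (28.5 to 48.6), leaving out 5, 0 and 1 nuclei. Unthinned, the shares were 97.2%, 70.2% and 60.2%. In rods 13.4%, 4.43% and 7.93% had one, and the 3 genes summed to 286, 45.6 and 60.9 CPM there, against 2196, 437 and 427 CPM in non-reactive Müller nuclei. Rods were thus also highest at 2 weeks, at a far lower level, and whether their counts are free RNA was not tested.

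**Figure D2:**
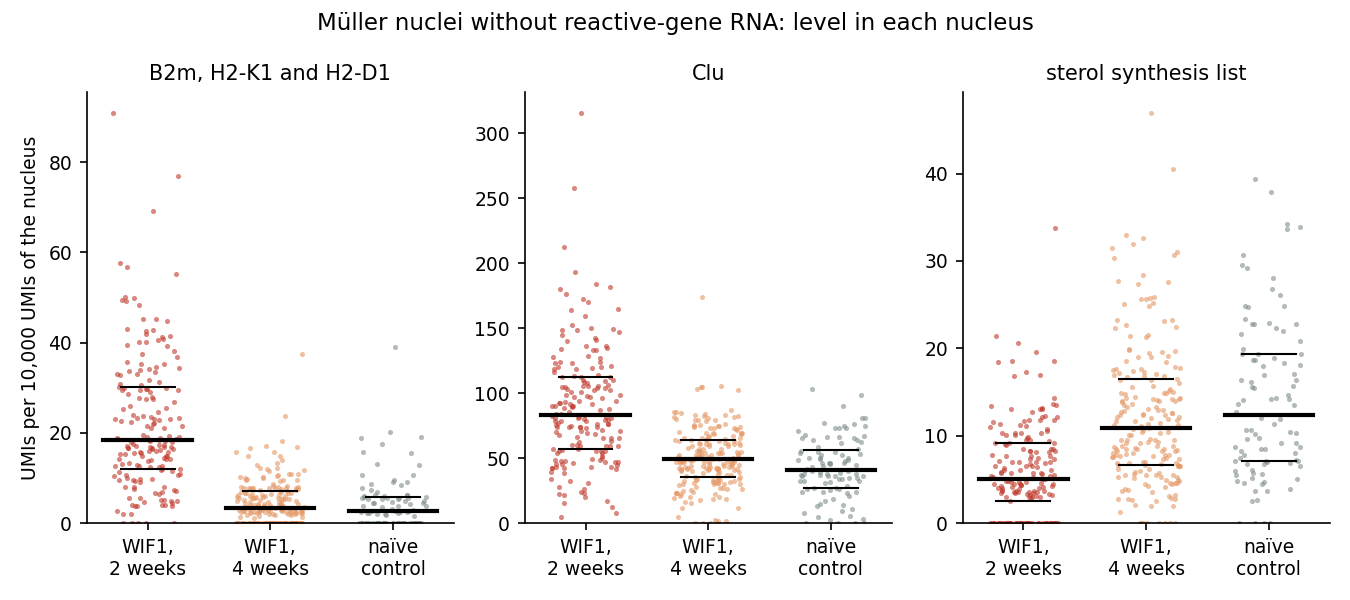
Level per non-reactive Müller nucleus (UMIs per 10000) of the 3 class I genes, of Clu and of the sterol synthesis list, 1 panel each and 1 column of nuclei per library, with the median as a thick line and the quartiles as thin lines. Medians for 2 weeks, 4 weeks and control were 18.4, 3.27 and 2.62 for class I, 83.0, 49.0 and 40.7 for Clu, and 5.09, 10.9 and 12.4 for the sterol list.

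Interferon-stimulated genes outside antigen presentation followed only in part. Ly6e, a membrane protein induced by interferon, had 103, 13.8 and 10.4 CPM, a 2-week ratio of 9.98 (3.68 to 38.0) on 4 control UMIs. Stat2, which carries the type I interferon signal to the nucleus, had 74.1, 37.7 and 25.9 CPM, and Parp9 had 66.3, 22.6 and 18.1 CPM. Of the interferon list 6 of 39 were higher (Stat2, Irf9, Parp9, Gbp3, Gbp6 and Herc6) and 1 lower (Ifih1), with a median of 0.18 and sums of 1925, 1110 and 1574 CPM. This comparison turned on a single control nucleus, which held 36.3% of that library's interferon UMIs, with 24 of Ifit3 and 12 of Rsad2. Without the nucleus highest for the list in each library, 15 of 36 were higher and 1 lower at 2 weeks, with a median of 0.73 and a summed ratio of 1.74, against 1.22 with them. At 4 weeks against the control the same step took the list from 14 of 40 lower and 0 higher to 3 of 34 lower and 2 higher, and its summed ratio from 0.705 to 1.02.

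Secreted complement and acute-phase genes were next. Serping1, the C1 inhibitor that restrains the classical complement pathway, had 234 CPM at 2 weeks, 59.1 at 4 weeks and 33.7 in the control, a 2-week ratio of 6.95 (3.92 to 13.4). Clu, the secreted chaperone clusterin, was among the most abundant of all, with 8825, 4702 and 4193 CPM and a ratio of 2.10 (1.99 to 2.23). Its median per nucleus was 83.0 UMIs per 10000 at 2 weeks, against 40.7 in the control, and the quartiles of the 2-week nuclei, 56.8 and 113, lay at or above the control's upper quartile of 56.6. Rods had a Clu UMI in 7.86%, 6.04% and 9.05% of nuclei, so some Clu RNA was read in nuclei of another type in each library. These shares carry the difference in depth. In CPM, rods had 102.4, 48.2 and 55.0 of Clu, also highest at 2 weeks and at a far lower level. Whether these rod counts are free RNA was not tested. Of 8 measured complement genes 4 were higher at 2 weeks, Serping1 and the 3 C1q genes, and the C1q UMIs lay mostly in the nucleus with macrophage RNA, with 93.3% of those of C1qa.

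Genes of reactivity that the rule does not use were partly higher as well. Of 23 measured, 6 were higher at 2 weeks (Clu, Cebpb, Serping1, Amigo2, Tgif1 and Mt2) and 1 lower (Cxcl10), with a median of 0.70. Cebpd, which encodes an acute-phase transcription factor, had 371, 162 and 189 CPM. Vim, the intermediate filament that reactive Müller glia gain, had 357, 352 and 448 CPM and did not reach 2-fold. The metallothioneins, which bind zinc and copper, were higher at 2 weeks, with 595, 182 and 259 CPM of Mt1 and 148, 56.6 and 62.1 CPM of Mt2. Of the 305 Mt1 UMIs at 2 weeks 67 came from 1 nucleus.

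Some components of the cytokine pathways were higher at 2 weeks. Nfkb1, a subunit of NF-kappaB, had 213, 124 and 98.4 CPM, and Tnfrsf1a, the main TNF receptor, had 109, 75.4 and 44.0 CPM. Of 17 NF-kappaB genes 5 were higher and 0 lower, with a median of 0.47. Pim1, a kinase gene that STAT3 turns on, had 85.8, 45.2 and 33.7 CPM and was the 1 of 15 gp130 and STAT3 genes past 2-fold, while Stat3 had 164, 95.5 and 101 CPM and Socs3 5, 3 and 4 UMIs.

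Sterol synthesis ran the other way. Msmo1, which removes methyl groups from the sterol ring, had 44.9 CPM at 2 weeks, 165 at 4 weeks and 194 in the control, a 2-week ratio of 0.231 (0.138 to 0.373). Sqle, which makes the squalene epoxide, had 27.3, 72.9 and 88.0 CPM, a ratio of 0.310 (0.154 to 0.594). Insig1, which holds the sterol sensor in the endoplasmic reticulum, had 44.9, 108 and 127 CPM, a ratio of 0.354 (0.206 to 0.592). Hmgcs1 and Cyp51, at the start and the middle of the pathway, had 15.6 and 11.7 CPM at 2 weeks, 69.1 and 64.1 at 4 weeks, and 72.5 and 59.5 in the control. In each of these 5 genes the 2-week library was the lowest.

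Of 18 measured sterol genes 0 were higher and 11 lower at 2 weeks, with a median of -1.56. The list summed to 614, 1164 and 1390 CPM, and per nucleus the median was 5.09, 10.9 and 12.4 UMIs per 10000. At 1500 UMIs 61.4% of nuclei had a UMI of the list at 2 weeks (53.7 to 68.6), 74.0% at 4 weeks (67.5 to 79.9) and 86.6% in the control (78.2 to 92.7). Unthinned the shares were 75.1%, 96.2% and 95.9%. In rods the list summed to 437, 446 and 575 CPM, also highest in the control, and reactive Müller nuclei had 612, 1077 and 1475 CPM. Genes of the neighbouring lipid lists were mostly under 2-fold, and among them Scd2, a fatty acid desaturase, had 351, 578 and 730 CPM, while Abca1, which exports cholesterol, had 91.7, 46.5 and 33.7 CPM, a 2-week ratio of 2.72.

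Promoters of sterol genes are shown for Hmgcs1 and Msmo1, with CCAAT boxes on either strand in capitals, from the same RefSeq source.

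Hmgcs1 (chr13:119690101-119690400, plus strand): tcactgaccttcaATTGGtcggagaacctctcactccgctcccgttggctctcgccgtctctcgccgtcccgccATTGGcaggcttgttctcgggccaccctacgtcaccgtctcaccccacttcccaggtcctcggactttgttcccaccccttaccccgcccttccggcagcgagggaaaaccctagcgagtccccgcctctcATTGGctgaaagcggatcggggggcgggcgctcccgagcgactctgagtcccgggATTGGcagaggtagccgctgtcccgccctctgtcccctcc
Msmo1 (chr8:64733529-64733828, minus strand): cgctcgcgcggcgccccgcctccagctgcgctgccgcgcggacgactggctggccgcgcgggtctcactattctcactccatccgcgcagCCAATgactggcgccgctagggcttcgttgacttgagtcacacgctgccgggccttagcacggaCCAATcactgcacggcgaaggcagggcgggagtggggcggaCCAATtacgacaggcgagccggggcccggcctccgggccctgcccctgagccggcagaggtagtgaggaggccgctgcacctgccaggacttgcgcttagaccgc

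All 16 sterol genes with a promoter sequence held CCAAT, as did 41.1% of all genes and 16 of 21 antigen presentation genes (76.2%). The sterol element, searched only in the spelling ATCAC, any base and CCAC, was in 0 of 16. Of all 27025 genes 73 held it (0.270%), so a count of 0 in 16 genes says little. Looser spellings, such as CTCACCCCAC in the Hmgcs1 promoter above, were not searched for. The letters of CCAAT are common in promoters, and nothing follows from them about a factor.

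Hes5, the transcriptional repressor that Notch signalling keeps on in Müller glia, had 44.9 CPM at 2 weeks, 118 at 4 weeks and 241 in the control. The 2-week nuclei had 0.186 of the control level (0.113 to 0.297), and the 4-week nuclei 0.491 of it (0.364 to 0.661), with intervals that do not overlap. At 1500 UMIs 5.68% of nuclei had a Hes5 UMI at 2 weeks (2.76 to 10.2), 14.9% at 4 weeks (10.4 to 20.5) and 23.7% in the control (15.7 to 33.4). The shares were 9.39%, 27.4% and 37.8% before thinning, against 0.518%, 0.825% and 0.805% of rods. Unthinned shares carry the difference in depth, and in CPM rods had 5.05, 5.29 and 3.81, lowest in the control. Of 26 genes of the list of glial transcription factors and Notch, Hes5 and the ligand gene Jag1 were lower and 0 higher at 2 weeks, with a median of -0.07.

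Several other genes stood low at 2 weeks. Camk1d, a calcium/calmodulin-dependent kinase gene, had 181, 1026 and 950 CPM, a ratio of 0.191 (0.150 to 0.240). Rods had 1404, 1358 and 1335 CPM of it, without that difference. Cmss1 had 58.5, 185 and 267 CPM, and rods 90.7, 190 and 245 CPM, in the same order. Rgs2, a regulator of G protein signalling, had 50.7 CPM at 2 weeks against 204 in the control. Cdhr1, a photoreceptor cadherin, had 15.6 CPM against 85.4 in the control and moved with the rod genes. The chaperone Hsp90aa1 had 308, 694 and 645 CPM, a ratio of 0.478 (0.389 to 0.586), and 4 of 18 heat shock genes were lower and 0 higher. Rods had 955, 1323 and 1490 CPM of Hsp90aa1, also lowest at 2 weeks, and the part of free RNA in these differences was not tested. The immediate early gene Jun had 35.1, 45.2 and 95.8 CPM.

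**Figure D3:**
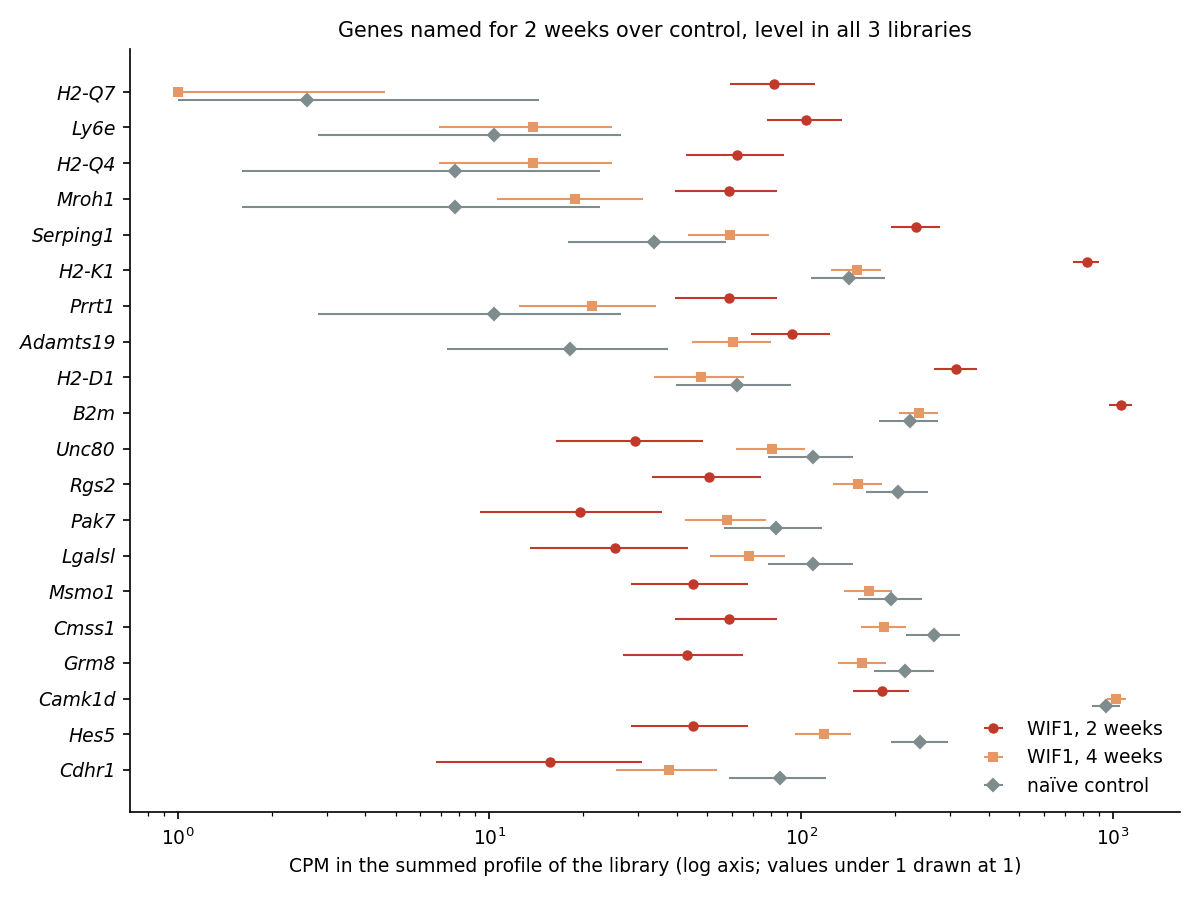
Genes named for the comparison of 2 weeks with the control, in CPM on a log axis for non-reactive Müller nuclei of the 3 libraries, with exact Poisson intervals and values under 1 drawn at 1. The class I genes, Ly6e and Serping1 lie to the right at 2 weeks, and Hes5, Camk1d and Msmo1 to the left, while most 4-week points lie near the control.

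RNA for the everyday functions of Müller glia differed little. Of 19 measured genes of glutamate uptake, potassium and water balance 0 were 2-fold higher or lower at 2 weeks and 0 at 4 weeks. Their medians were 0.05 and 0.01. This list shares genes with the rule's markers, such as Kcnj10, on which the nuclei were chosen, so its values are a description. Apoe, the lipid carrier that Müller glia secrete, had 8232, 10054 and 8332 CPM. In the retinoid and lipid list 1 of 13 genes, Abca1, was higher and 1, Rgr, lower at 2 weeks, with a median of -0.22. Glucose metabolism had 1 of 22 genes higher and 0 lower.

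In the Wnt pathway, which WIF1 acts on, the counts past 2-fold stand beside 8.59% higher and 8.35% lower of all measured genes at 2 weeks, and were not set apart from them. Tcf7l2, a DNA-binding partner of beta-catenin, had 445 CPM at 2 weeks (389 to 506), 363 at 4 weeks (323 to 408) and 393 in the control (333 to 461). Tcf4, which names a bHLH factor gene here and is also an older name of Tcf7l2, had 1270 CPM (1174 to 1371), 1139 (1066 to 1215) and 994 (897 to 1099). Neither reached 2-fold. Of 17 ligand and receptor genes Wnt5b and Ptk7 were higher and Ndp lower at 2 weeks, with 14, 19 and 3 UMIs of Wnt5b, 18, 25 and 4 of Ptk7, and 7, 20 and 11 of Ndp. At 4 weeks Wnt5b and Ptk7 were higher and Lgr5 lower of 19. In the beta-catenin and TCF list Dvl3 was the 1 of 17 higher at 2 weeks, and Lef1 was higher and Pygo2 lower of 20 at 4 weeks. The target gene Axin2 had 6, 10 and 3 UMIs, too few to compare. Of the secreted Wnt inhibitors 0 of 4 measured differed 2-fold at either time, and Dkk3, abundant in Müller glia, had 1833, 1964 and 1991 CPM.

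**Figure D4:**
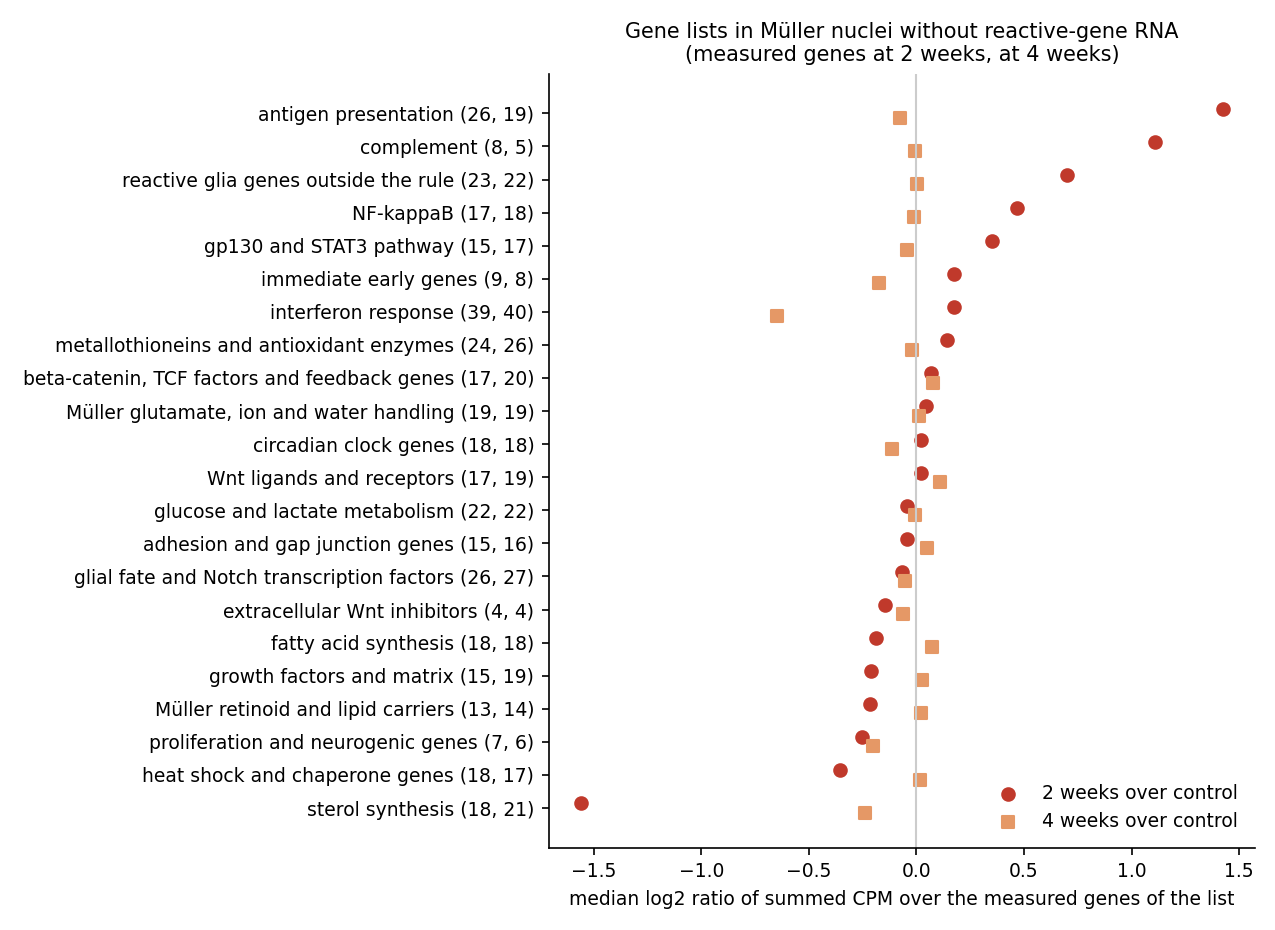
Median log2 ratio to the control of the measured genes of each list in non-reactive Müller nuclei, at 2 weeks and at 4 weeks. At 2 weeks antigen presentation stands at 1.42 and sterol synthesis at -1.56, at 4 weeks these lists stand at -0.08 and -0.24, and the 4-week interferon median of -0.65 is -0.02 without the nucleus highest for that list in each library.

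At 4 weeks the named gene with the highest ratio to the control was Pdcd6ip, which acts in membrane remodelling, with 64.1 CPM against 15.5 (4.13, 1.77 to 11.8). Prpf3, Cntn4 and Hsf2 came next. The 58 UMIs of Cntn4 lay in 14 of 208 nuclei, with 13 in 1 nucleus, while Pdcd6ip, Prpf3 and Hsf2 were read in 39, 42 and 40 nuclei. Adamts19, a secreted protease, was higher at both times, with 93.6, 60.3 and 18.1 CPM. The lowest included Lama2, with 31.4 CPM against 80.2 in the control. Low too were Cox8a (116 against 290, ratio 0.399, 0.299 to 0.530) and Uqcr11 (42.7 against 95.8) of the respiratory chain, and Atp5o of ATP synthase. Also among the 10 lowest were the photoreceptor genes Cdhr1 (37.7 against 85.4), Rbp3 (107 against 236) and Pde6h (118 against 254). The control had the higher rod-gene share (1.36% against 0.942%) and median mitochondrial share (1.27% against 0.408%). Their part in these low ratios was not tested. Of the antigen presentation list 1 of 19 was higher and 5 lower, beside 4.41% higher and 5.12% lower of 11031 genes, with a median of -0.08. Complement had 0 of 5 past 2-fold, and the sterol list had a median of -0.24. The class I level at 4 weeks, 437 CPM over the 3 genes, stood beside 427 in the control.

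Between 4 weeks and 2 weeks, 258 of 5697 genes were higher (4.53%) and 112 lower (1.97%). The split was 183 higher and 132 lower with the larger sum thinned to the smaller, and the control takes no part in it. H2-K1 at 4 weeks was 0.183 of its 2-week level (0.148 to 0.225), H2-D1 0.152 (0.104 to 0.218) and B2m 0.225 (0.190 to 0.266). H2-Q7, at 0 UMIs at 4 weeks, was 21.7-fold lower with the 4-week library set to a floor of 3 UMIs, and at least 16.9-fold lower by the counting interval. Camk1d was 5.65 times higher at 4 weeks (4.56 to 7.09), Cyp51 5.48 times (2.35 to 15.6), Hmgcs1 4.43 times (2.10 to 10.8) and Hes5 2.63 times (1.66 to 4.36). Mt1 stood at 0.306 and Cebpd at 0.438 of the 2-week level. Igf2, a growth factor gene, had 95.5 CPM at 4 weeks, 23.4 at 2 weeks and 80.2 in the control. Of the antigen presentation list 1 of 26 was higher (Calr) and 18 lower, with a median of -1.81, and of sterol synthesis 10 of 20 were higher and 0 lower, with a median of 0.99. Of all 11337 genes with at least 10 UMIs 6.69% were higher and 6.24% lower. Of the interferon list 16 of 41 were lower and 0 higher, and 15 of 40 without the highest nucleus of each library.

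Within the injected libraries the non-reactive nuclei can be set against their reactive neighbours, which share library and free RNA. The eye of a nucleus is not given, so whether both kinds came alike from the 2 eyes is not known. The rule split them on 4 reactive genes, so genes that vary with those are chosen by it in part, and the values are a description. At 2 weeks 95 of 3971 genes were higher in non-reactive nuclei (2.39%) and 162 lower (4.08%), and 79 were higher and 40 lower with nuclei thinned to 1500 UMIs. At 4 weeks 341 of 5632 were higher (6.05%) and 178 lower (3.16%), a split that turned to 120 higher and 189 lower with the larger sum thinned to the smaller. The control has 14 reactive nuclei, too few for this comparison. Reactive nuclei were deeper, with medians of 3584 UMIs at 2 weeks and 4739 at 4 weeks.

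Non-reactive nuclei at 2 weeks had 23.4 CPM of A2m, a protease inhibitor of the acute phase, against 224 in reactive nuclei, and at 4 weeks 11.3 against 366. Timp1, an inhibitor of matrix proteases, had 0 UMIs in non-reactive nuclei at 4 weeks against 43 in reactive nuclei. That is 39.4-fold lower at a floor of 3 UMIs and at least 30.7-fold lower by the counting interval. The 43 UMIs lay in 8 of the 57 reactive nuclei, with 10 in 1 nucleus, so most reactive nuclei also had 0. Nupr1, a stress-induced chromatin protein, had 25.4 CPM against 190 at 2 weeks, and Ifitm3, an antiviral membrane protein, 85.5 against 663 at 4 weeks. Mt1 had 595 CPM against 1570, Serping1 234 against 617 and Cd44, the hyaluronan receptor, 111 against 238 at 2 weeks. Genes of reactivity outside the rule were thus lower in the non-reactive nuclei too.

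Higher in non-reactive nuclei were P2ry14, a receptor for UDP sugars, with 52 UMIs against 9 at 2 weeks, and Slco1c1, a transporter of thyroid hormone, with 39 UMIs against 9 at 2 weeks and 137 CPM against 17.3 at 4 weeks (ratio 7.94, 3.30 to 24.9). Tcf7l2 had 445 CPM against 235 at 2 weeks, and Hes5 had 44.9 against 48.1 at 2 weeks and 118 against 48.3 at 4 weeks. Of the reactive glia list 1 of 29 was higher and 14 lower at 2 weeks, and 0 of 30 and 14 at 4 weeks. The background was 5.81% higher and 8.19% lower of 10378 genes at 2 weeks, and 5.99% higher and 8.30% lower of 10877 at 4 weeks. Interferon genes had 25 of 46 lower and 0 higher at 2 weeks and 23 of 42 lower and 1 higher at 4 weeks. Antigen presentation had 6 of 26 lower and 2 higher at 2 weeks, with a median of -0.52. The astrocyte list, whose defining marker Pax2 was at 0 in the non-reactive nuclei, had 491 CPM there against 996 in reactive nuclei at 2 weeks, and its part in these differences was not tested.

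Sterol synthesis did not part the 2 kinds of nuclei. It had 614 CPM in non-reactive and 612 in reactive nuclei at 2 weeks, with 3 of 17 genes higher and 3 lower, and 1164 against 1077 at 4 weeks, with 0 of 18 either way. Both kinds stood below the 1390 CPM of the non-reactive control nuclei.

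Counting the UMIs of the 4 reactive genes gave finer steps, which rest on the rule's own genes and are a description. At 2 weeks nuclei with 0, 1 and 2 or more such UMIs numbered 181, 43 and 54 and held 3934, 3455 and 7042 CPM of antigen presentation genes and 1925, 2527 and 4928 CPM of interferon genes. Sterol synthesis stood at 614, 571 and 638 CPM over the same steps. At 4 weeks, with 208, 22 and 35 nuclei, antigen presentation stood at 1449, 2261 and 2818 CPM. In the control, with 98, 5 and 9 nuclei, it stood at 1418, 914 and 2823 CPM. Median depth also went up over the steps, with 2603, 2845 and 3885 UMIs at 2 weeks. Non-reactive nuclei at 2 weeks thus had more antigen presentation RNA than any step at 4 weeks or in the control.

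**Figure D5:**
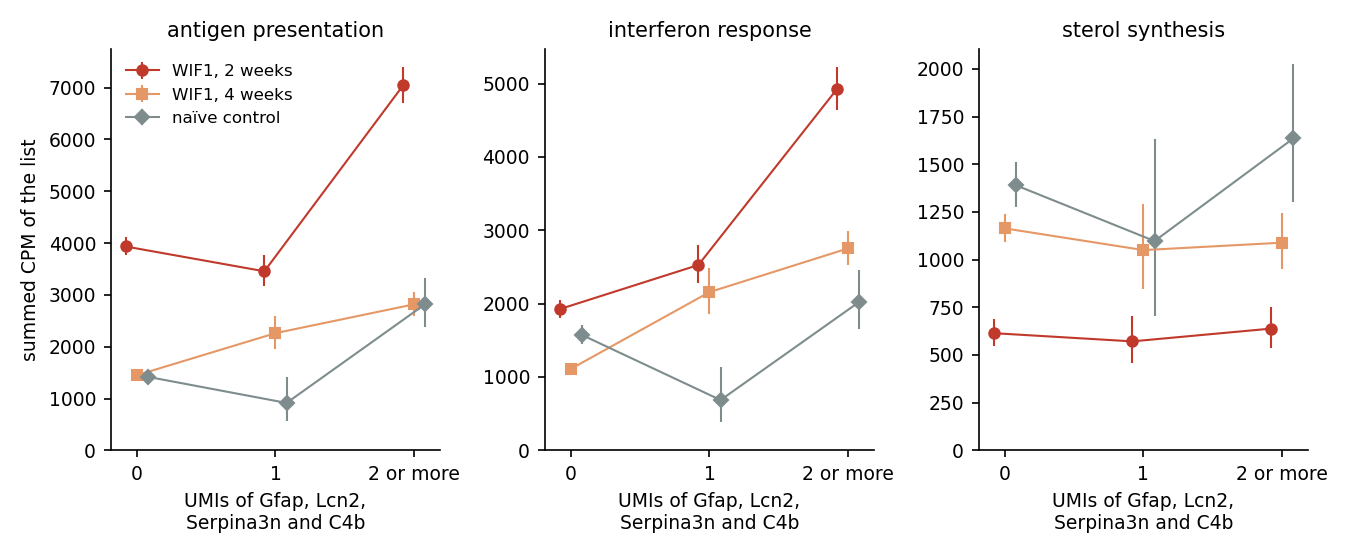
Summed CPM of gene lists in Müller nuclei with 0, 1 and 2 or more UMIs of the 4 reactive genes, 1 line per library with exact Poisson intervals as bars. Nuclei with 0 are the non-reactive ones, and the control steps of 1 and of 2 or more rest on 5 and 9 nuclei.

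Open chromatin at promoters was compared in the same nuclei. Peaks were called in each library on its own, 103911, 75686 and 54429 in all, so a gene was compared only where each library had a peak within 1000 bp of its start, and CPM here are of all promoter counts. The deposited ATAC values come mostly in pairs, with 78.7%, 74.4% and 74.9% of values above 0 equal to 2, so shares of nuclei are given. Between 2 weeks and the control 703 of 10770 promoters with at least 30 counts were 2-fold higher (6.53%) and 257 lower (2.39%). At 4 weeks 472 of 10720 were higher (4.40%) and 209 lower (1.95%). Non-reactive against reactive nuclei at 2 weeks gave 266 of 10914 higher (2.44%) and 140 lower (1.28%). The median non-reactive nucleus held 6984, 4569 and 3824 ATAC counts, of which promoters took 60.3%, 68.7% and 72.3% over the library. Scaled by all ATAC counts instead, the split was 407 higher and 759 lower at 2 weeks and 375 and 284 at 4 weeks, and the median log2 ratio of all promoters at 2 weeks was -0.24, against 0.02. The direction of the promoter count at 2 weeks therefore turned with the scaling, and single promoters are read relative to that median.

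For the genes given here the promoter ratios of 2 weeks to the control were below those in RNA. They rest on few counts, most of all in the control, and are loosely bounded. The B2m promoter had a count in 14.4% of nuclei at 2 weeks (9.60 to 20.3), 9.62% at 4 weeks (5.97 to 14.5) and 8.16% in the control (3.59 to 15.5), or 68.6, 52.7 and 53.2 CPM. At H2-K1 the values were 58.0, 39.0 and 50.2 CPM, at H2-D1 48.5, 42.4 and 26.6, and at Clu 97.0, 94.0 and 82.7. The intervals of their shares of nuclei overlapped between libraries, and these shares also carry the difference in ATAC depth. H2-Q4 was past 2-fold, with 59.1, 24.1 and 17.7 CPM and a count in 23, 11 and 4 nuclei. Serping1 had 50.9, 37.8 and 14.8 CPM in 20, 17 and 3 nuclei. Of the antigen presentation list 3 of 16 promoters were higher at 2 weeks and 0 lower, with a median of 0.41 beside 0.02 over all promoters, and at 4 weeks 0 of 12 differed 2-fold.

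The sterol promoters did not follow their RNA. Of 22, 1 was higher and 1 lower at 2 weeks, with a median of 0.00. The higher one was Msmo1, with 174, 159 and 76.8 CPM and a count in 56, 55 and 12 nuclei, while its RNA was lowest at 2 weeks. The lower one was Tm7sf2, and Hmgcs1 had 247, 244 and 207 CPM and Sqle 147, 182 and 201. Over all genes whose RNA was 2-fold higher at 2 weeks, 12 of 141 promoters were higher and 1 lower, and over those with lower RNA 6 of 146 were higher and 8 lower, beside 176 higher and 83 lower of the 3435 promoters of all genes with enough RNA to compare.

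Promoters of the 4 reactive genes, whose chromatin the rule did not use, had counts in few non-reactive nuclei. A Gfap promoter peak was called at 2 weeks alone, with a count in 2 of 181 non-reactive nuclei (1.10%, 0.134 to 3.93), 7 of 97 reactive nuclei (7.22%, 2.95 to 14.3) and 15 of 7147 rods (0.210%). The C4b promoter, also called at 2 weeks alone, had counts in 5 non-reactive nuclei (2.76%, 0.903 to 6.33), 13 reactive nuclei (13.4%, 7.33 to 21.8) and 10 rods (0.140%). At Serpina3n 2 non-reactive and 7 reactive nuclei had a count. Fewer non-reactive than reactive nuclei had a count at each of these 3 promoters at 2 weeks, with the intervals not overlapping at C4b. The Lcn2 promoter had a peak in each library, with counts in 0, 4 and 2 non-reactive nuclei, 1, 2 and 2 reactive nuclei, and 270, 370 and 186 rods (3.78%, 5.18% and 3.26%). The Wif1 promoter had a count in 11, 6 and 5 non-reactive nuclei.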

How the data were processed

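The authors deposited 1 matrix of raw counts per library, with the UMIs of each gene and the ATAC counts of each peak in every called barcode, as the file headers show. Cell Ranger ARC 2.0.1, Seurat 5.0.1, Signac 1.12.0 and the mm10 genome are named in the submitters' processing notes, without their roles. The rest was computed in Python 3.11.15 with numpy 2.4.6, scipy 1.17.1, pandas 2.3.3, scanpy 1.11.5 and matplotlib 3.10.9. All 32285 genes were read, with the symbols the files pair with their identifiers, and the library totals were 14568384, 19997276 and 21805441 RNA UMIs at 2 weeks, 4 weeks and in the control.

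UMIs were summed over the nuclei of each library. CPM carry exact Poisson intervals, ratios conditional binomial intervals and shares Clopper-Pearson intervals. Nuclei of 1 library are not replicates and nothing was tested. Rods were nuclei with at least 3 of 6 rod markers and at most 1 UMI of the Müller markers.

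Named genes came from the 10 highest and 10 lowest ratios to the control (and, added later, of 4 weeks to 2 weeks) and from the 5 highest and 5 lowest against reactive nuclei, among genes whose higher sum reached 30 UMIs and 50 CPM with no nucleus holding over 25% of them. Rule, mitochondrial, rod and sex-linked genes and unnamed gene models were left out. List genes past 2-fold could be named too (there were 36 lists), as could Wif1, Tcf4 and Tcf7l2. A few genes under these limits, such as Vim, Apoe and Stat3, were named after their values were seen. A list's counts use genes of at least 10 UMIs over both sums. The nuclei, the lists and the rule were chosen with earlier results of these data known.

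The automatic Scrublet threshold, which marked 1, 0 and 0 doublets, was set aside. A rate of 0.8% per 1000 barcodes called 785, 743 and 472, which were kept. The ratio and count steps were tested on simulated data. Alternatives were other marker, depth, doublet, filter and scaling choices.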

Additional observations from a re-analysis of the deposited data

How the results depend on the processing

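Counts of 2-fold genes followed the filter and the depth. With filters of 10 and 100 UMIs and with nuclei thinned to 1500 UMIs, the 382 genes of 2 weeks against the control became 1414, 47 and 194, the 152 of 4 weeks against the control 779, 8 and 101, the 370 of 4 weeks against 2 weeks 1264, 59 and 178, the 257 of non-reactive against reactive nuclei at 2 weeks 1157, 27 and 119, and the 519 at 4 weeks 1257, 90 and 266. By construction more genes enter at the filter of 10 UMIs, fewer genes at that of 100 UMIs, and fewer UMIs after thinning. Letting 1 UMI of the reactive genes into the non-reactive nuclei gave 567 genes against reactive nuclei at 2 weeks. At 4 weeks this was not run, since 35 reactive nuclei would remain, under the minimum of 50. For other changes below the cause was not tested unless the nuclei left out are named.

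The class I ratio of 4 weeks to 2 weeks was 0.237 after thinning, against 0.200. The antigen presentation ratio at 2 weeks to the control was 2.52 without called doublets, and that of 4 weeks to 2 weeks, 0.368, was 0.405 after thinning, 0.441 without doublets, 0.400 with up to 1 reactive UMI and 0.427 without nuclei holding 3 or more macrophage or lymphocyte UMIs. The non-reactive share after thinning was 77.0%, 84.9% and 95.5%, and 6 rod markers alone gave rod shares of 0.162%, 0.268% and 0.463%. The interferon ratio of 4 weeks to the control was 0.795 with up to 1 reactive UMI.

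Alternatives chosen after seeing the data were the following. In nuclei with at most 1% rod-gene UMIs, 2 weeks against the control gave 243 genes, a sterol ratio of 0.381 and an interferon ratio of 1.10, and the interferon ratios of 4 weeks to the control and to 2 weeks were 0.577 and 0.524. Without nuclei holding 3 or more macrophage or lymphocyte UMIs the antigen presentation ratio at 2 weeks was 2.42. Thinning the larger sum to the smaller gave 91 genes for 4 weeks against the control and 309 for non-reactive against reactive nuclei at 4 weeks. Leaving out the nucleus with most interferon UMIs in each library gave interferon ratios to the control of 1.74 at 2 weeks and 1.02 at 4 weeks. With the same number of promoter peaks in each library, 637 promoters differed at 2 weeks, against 960.

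Of the named genes called 2-fold, 44 of 44 at 2 weeks against the control, 22 of 23 at 4 weeks, 40 of 40 between the times, 31 of 31 against reactive nuclei at 2 weeks and 35 of 37 at 4 weeks kept their direction under every alternative run, and 28, 9, 27, 20 and 21 of them stayed past 2-fold under every one. The exceptions were Cdhr1 at 4 weeks with up to 5% mitochondrial UMIs (log2 ratio 0.16), and, against reactive nuclei at 4 weeks, Arhgap24 after thinning (-0.45) and without doublets (-1.32) and Acss2 after thinning (-0.13). No paired analysis was possible because each group has 1 library, and for the same reason no replicate could be left out.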

Other observations

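RNA of other gene lists was concentrated in single non-reactive nuclei. The 2-week nucleus with macrophage RNA held 4286 UMIs in all, 32 UMIs of Müller markers and 6 of the 9 markers, and the next nucleus held 5 UMIs of the macrophage list. The control nucleus with most interferon RNA held 221 UMIs of that list among 4356, the next 44. The highest nuclei at 2 weeks and 4 weeks held 94 and 67, and the next in each held 26. Vegfa, the vascular growth factor gene, had 168, 279 and 194 CPM at 2 weeks, 4 weeks and in the control.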
